A study of Homo sapiens with 6 samples.

Results

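The EGF receptor family and its ligands were followed in A-498 cells, an established human renal cell carcinoma line, after treatment with zebularine, a nucleoside analogue that inhibits DNA methyltransferases. The members are 3 receptor genes (EGFR, ERBB2 and ERBB3) and 6 ligand genes (TGFA, AREG, EREG, HBEGF, BTC and NRG1), and every probe set that the platform annotation gives to exactly 1 of them was taken, 24 of the 22277 probe sets on each array. Of the 6 arrays, 3 hold cultures grown in 1000 µM zebularine over 120 h and 3 hold untreated cultures grown as long. Each of 3 replicate numbers holds 1 zebularine and 1 untreated culture of the same experiment, all cultures are of the 1 cell line, and cultures were split during the treatment.

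Receptors of this family are membrane tyrosine kinases that signal as pairs. Their ligands are made as membrane-anchored precursors and are cut free by proteases. EGFR is a receptor for TGFA, AREG, EREG, HBEGF and BTC, while ERBB3 is a receptor for NRG1. ERBB2 has no known ligand of its own and ERBB3 is a weak kinase, so both act through partners. In kidney carcinoma cells that lack VHL, TGFA is known as a growth factor that the cells make for themselves.

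Zebularine is incorporated into DNA and traps DNA methyltransferases at CpG sites, so the CpG sites of the members' promoters are shown as context; no methylation was measured here. RefSeq promoter windows (build GRCh38.p14, 250 bases before to 50 after the start) were found for 7 of the 9 members, all but ERBB3 and NRG1. The 3 windows below are those of TGFA, a ligand whose probe sets lay higher with zebularine without passing the test, of EGFR, a receptor whose groups overlapped at every tested probe set, and of EREG, a ligand that was too dim to test. Capitals mark each CG, which reads the same on both strands.
TGFA, chr2:70553777-70554076, minus strand: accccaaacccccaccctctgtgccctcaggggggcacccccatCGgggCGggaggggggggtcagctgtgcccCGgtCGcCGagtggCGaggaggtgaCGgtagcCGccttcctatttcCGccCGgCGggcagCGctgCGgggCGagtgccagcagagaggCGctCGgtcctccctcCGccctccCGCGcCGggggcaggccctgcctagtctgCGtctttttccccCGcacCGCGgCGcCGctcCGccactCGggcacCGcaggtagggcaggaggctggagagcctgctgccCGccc
EGFR, chr7:55018767-55019066, plus strand: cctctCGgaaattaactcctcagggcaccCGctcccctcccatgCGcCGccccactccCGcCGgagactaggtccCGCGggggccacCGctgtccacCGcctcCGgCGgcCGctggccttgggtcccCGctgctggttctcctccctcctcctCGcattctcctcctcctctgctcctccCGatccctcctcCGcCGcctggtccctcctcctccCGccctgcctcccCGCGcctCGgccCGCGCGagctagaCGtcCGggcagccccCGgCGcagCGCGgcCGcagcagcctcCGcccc
EREG, chr4:74364895-74365194, plus strand: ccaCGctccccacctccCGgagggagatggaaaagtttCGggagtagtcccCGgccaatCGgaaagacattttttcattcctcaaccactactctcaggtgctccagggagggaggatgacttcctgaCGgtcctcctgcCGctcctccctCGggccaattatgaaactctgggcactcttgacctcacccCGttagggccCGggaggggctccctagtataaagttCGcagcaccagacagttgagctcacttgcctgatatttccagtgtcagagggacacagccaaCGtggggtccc
The motif CG occurs 30 times in the TGFA window, 33 times in the EGFR window and 12 times in the EREG window. Of 35116 such windows of human genes 96.0% hold at least 1 CG, and 22.4%, 17.2% and 53.1% hold at least as many as TGFA, EGFR and EREG. At the starts of the other members the window holds 38 for HBEGF, 27 for AREG, 24 for ERBB2 and 12 for BTC. TGFA and EGFR each have a further window, at another RefSeq start of the gene, which holds 22 for TGFA and 1 for EGFR.

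Signals are MAS5 intensities on a linear scale, and levels are compared within a probe set only, never between probe sets. A probe set was tested if it reached a signal of 78.5, which 40% of all values lie under, on 3 or more of the 6 arrays. This left 16 of the 24 member probe sets, for 6 of the 9 genes. The 8 that were not tested include the single probe sets of EREG and BTC, and no probe set is named for AREG in the annotation used, so AREG was not analysed here. Of the 16, 8 reached the filter level on all 6 arrays, and 5 did so on all 3 arrays of one group and on fewer of the other. Among these 5 are ERBB3 202454_s_at and NRG1 206237_s_at, the only 2 called below with all 6 arrays. Each reached the level on all 3 arrays only in its higher group. Differences are zebularine minus untreated on the log2(signal + 16.34) scale, which understates the change of dim probe sets, and are given with their standard error.

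Each array's median signal lay between 117.9 and 140.8. Both arrays of replicate 3 had lower maxima, 28720.5 with zebularine and 31176.4 untreated, against 66289.9 to 71174.1 on the other 4. The ratio of 3' to 5' signal for ACTB, which moves with RNA integrity, was 5.25, 2.06 and 1.49 on the zebularine arrays of replicates 1, 2 and 3, against 3.10, 2.38 and 1.71 on the untreated ones, and its part in the results below was not tested. Of 7 kidney and renal carcinoma markers with a probe set, 6 were bright enough to test. The kidney transcription factor gene PAX8 averaged 858.4 in zebularine and 1145.0 in untreated cultures and was not called. The kidney cadherin gene CDH6, named after its values were seen, averaged 162.1 in zebularine and 1400.3 in untreated cultures and fell (limma, adjusted p = 0.0206 unblocked and 0.00392 blocked), while the other 4 were not called, and its part in the results was not tested. Of the markers of blood cells, endothelium and liver with a probe set none was bright enough to test. Among 3 fibroblast markers COL1A1 was tested and not called, and their summed signal was 399.7 to 650.2 in zebularine and 238.9 to 353.7 in untreated cultures, whose part in the results was not tested.

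Across the family, none of the 16 probe sets passed in the fit that leaves out the replicate numbers, and 2 passed in the fit that uses them. Limma, with p-values adjusted by Benjamini-Hochberg over the 13548 tested probe sets, called 0 of the 16 at an adjusted p under 0.05, where it called 0.62% of the whole table. At an unadjusted p under 0.05 there were 5 of 16, against 12.6% of all. The replicate numbers paired the arrays, and with the replicate number as a block limma called 2 of the 16, 1 of ERBB3 lower and 1 of NRG1 higher, against 4.23% of all tested probe sets (1.91% higher and 2.32% lower). Of the 7 tested receptor probe sets 6 had a mean difference below 0, with a median of -0.24, and of the 9 tested ligand probe sets 8 had one above 0, with a median of 0.87. Over all tested probe sets the median was -0.01 and 49.2% lay above 0. These counts describe probe sets that share genes and passed a filter, so they carry no test.

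**Figure D1:**
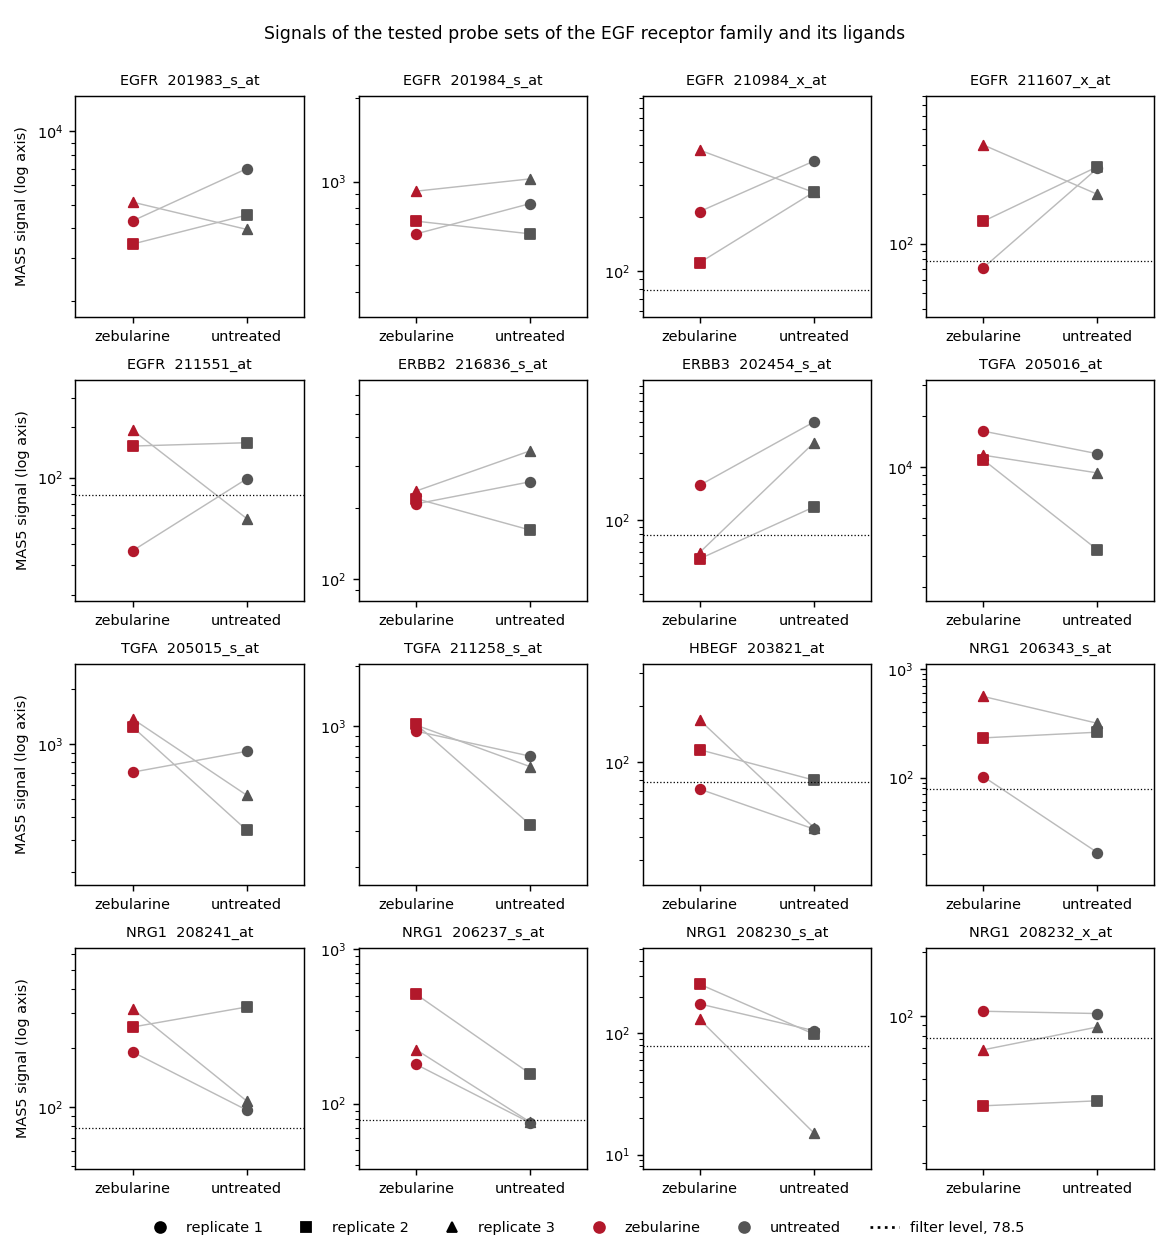
MAS5 signal (log axis) of the 16 tested member probe sets on each array, zebularine in red at the left and untreated in grey at the right of each panel, with lines joining the cultures of 1 replicate number. Signals of ERBB3 are lower with zebularine in each replicate, and those of NRG1 206237_s_at run from 179.5 to 510.1 with zebularine and from 75.2 to 156.0 untreated.

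ERBB3, a receptor that binds neuregulins, was lower with zebularine in each replicate. Its tested probe set 202454_s_at had signals of 177.6, 53.4 and 59.2 in the zebularine cultures of replicates 1, 2 and 3, against 499.2, 124.5 and 355.3 in the untreated ones. Each zebularine culture lay below its own untreated culture, but the groups overlapped, since zebularine culture 1 was above untreated culture 2. On the log2 scale the difference was -1.57 ± 0.52, a 2.98-fold lower level, with replicate differences of -1.41, -1.01 and -2.30. It did not pass limma without the block (adjusted p = 0.24) and was called with it (adjusted p = 0.0294). The signal of zebularine cultures 2 and 3 was under the filter level, so the size of the difference depends on the pseudocount: it was -1.22 with a pseudocount of 65.35 and -1.77 with none. The blocked call rested on replicates 1 and 3. Without replicate 3, whose arrays were dimmer at the top, the blocked limma fit gave -1.21 (adjusted p = 0.156), without replicate 1 it gave -1.66 (adjusted p = 0.165), and without replicate 2 the call held at -1.86 (adjusted p = 0.00485). In total RNA from a culture, fewer cells with the transcript and less transcript per cell cannot be told apart. The second ERBB3 probe set, 215638_at, was too dim to test, with signals from 4.9 to 70.5.

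EGFR, a receptor of TGFA and the other EGF-like ligands, did not differ beyond the spread between cultures. Its brightest probe set, 201983_s_at, had signals of 4281.7, 3437.1 and 5116.7 in zebularine cultures, against 7022.6, 4523.8 and 3949.4 in untreated cultures. The groups overlapped, with the zebularine culture lower in replicates 1 and 2 and higher in replicate 3. The difference was -0.24 ± 0.28 (limma, adjusted p = 0.764), and its 95% interval ran from -0.84 to 0.35, so a moderate change in either direction lies within it. The second bright probe set, 201984_s_at, read 646.9, 719.4 and 923.3 with zebularine, against 832.7, 647.2 and 1022.9 untreated. That is a difference of -0.12 ± 0.27 (limma, adjusted p = 0.894).

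The 3 dimmer tested EGFR probe sets split by replicate in the same way as the brightest. Those of the type that can bind related transcripts, 210984_x_at and 211607_x_at, differed by -0.44 ± 0.42 and -0.63 ± 0.48, and 211551_at by 0.11 ± 0.57 (limma, adjusted p = 0.715, 0.63 and 0.961). All 5 tested EGFR probe sets were lower with zebularine in replicate 1, 4 were lower in replicate 2, and 4 were higher in replicate 3. The range of their differences was -1.80 to -0.36 in replicate 1 and -0.15 to 1.51 in replicate 3. A 6th EGFR probe set, 211550_at, had signals between 8.6 and 18.7 and was not tested.

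ERBB2, the partner receptor, did not pass the test either. Its tested probe set 216836_s_at had signals of 207.5, 218.4 and 235.2 in zebularine cultures, against 257.4, 160.8 and 348.0 in untreated cultures. The zebularine values lay close together and inside the range of the untreated ones. The difference was -0.14 ± 0.33 (limma, adjusted p = 0.898), with a 95% interval of -0.85 to 0.57, and it turned to 0.10 without untreated replicate 3. The other ERBB2 probe set ran from 15 to 78.2 and was not tested.

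TGFA, the EGFR ligand transforming growth factor alpha, lay higher with zebularine at each of its 3 probe sets, by amounts that did not pass the test. The brightest, 205016_at, had signals of 16224.2, 11038.0 and 11735.8 in zebularine cultures, against 11963.8, 3281.3 and 9236.5 in untreated cultures. Untreated culture 2 was far below the rest, and the lowest zebularine value was below untreated culture 1. The difference was 0.84 ± 0.40 (limma, adjusted p = 0.411 unblocked and 0.0585 blocked), with replicate differences of 0.44, 1.75 and 0.35.

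At 211258_s_at the TGFA signals were 946.1, 1024.8 and 1013.8 with zebularine, against 710.2, 323.6 and 629.6 untreated. All 3 zebularine values were above all 3 untreated values there. At 205015_s_at they were 703.2, 1244.4 and 1376.6 with zebularine, against 914.5, 339.0 and 526.4 untreated, so that replicate 1 ran the other way. The differences were 0.90 ± 0.30 and 0.94 ± 0.36 (limma, adjusted p = 0.246 and 0.308 unblocked, 0.0765 and 0.147 blocked).

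Untreated culture 2 had the lowest signal at every TGFA probe set, and the size of the TGFA difference rested on it. Without that array the differences were 0.29 at 205016_at, 0.56 at 211258_s_at and 0.61 at 205015_s_at (limma, adjusted p = 0.67, 0.322 and 0.427). Without replicate 1 the difference at 205015_s_at was 1.59, which the blocked limma fit called (adjusted p = 0.0252) and the unblocked one did not (adjusted p = 0.0792). Over the 6 arrays the 3 probe sets correlated with each other at 0.719 to 0.916, a description over arrays that include both groups. Their mean difference was above 0 without each array in turn, from 0.29 to 1.22 at 205016_at. Low signals of untreated culture 2 were not confined to TGFA. That culture was also the lowest array at the pathway inhibitor SPRED2, at 193.6, but the highest at EGR1 201694_s_at, at 1527.5. What set this culture apart was not tested.

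HBEGF, the heparin-binding ligand of EGFR, was dim. Its tested probe set 203821_at had signals of 71.8, 116.6 and 168.2 in zebularine cultures, against 43.9, 80.2 and 44.7 in untreated cultures. Each zebularine culture was above its own untreated culture, the groups overlapped, and 3 of the 6 values were under the filter level. The difference was 0.87 ± 0.52 (limma, adjusted p = 0.524 unblocked and 0.364 blocked). The other 2 HBEGF probe sets, 222076_at and 38037_at, had signals between 4.2 and 60.8 and were not tested.

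NRG1, a neuregulin that binds ERBB3, was represented by 6 probe sets built on several transcript records, and they did not move alike. At 206237_s_at the signals were 179.5, 510.1 and 223.5 in zebularine cultures, against 75.2, 156.0 and 75.9 in untreated cultures. The groups did not overlap there, and the replicate differences were 1.10, 1.61 and 1.38. The mean difference was 1.36 ± 0.44, a 2.57-fold higher level. It did not pass limma without the block (adjusted p = 0.221) and was called with it (adjusted p = 0.0318). With the block and only 2 of the 3 replicates it was not called, at an adjusted p of 0.0701 to 0.10 in limma.

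At 208230_s_at the NRG1 signals were 175.4, 255.4 and 130.8 with zebularine, against 105.6, 98.9 and 15.1 untreated, again without overlap. The difference was 1.37 ± 0.55 (limma, adjusted p = 0.327 unblocked and 0.103 blocked). Untreated culture 3 was under the filter level, and without that array the difference was 0.73 (limma, adjusted p = 0.69). It was 0.915 with a pseudocount of 65.35 and 1.74 with none. The brightest NRG1 probe set, 206343_s_at, read 102.4, 231.9 and 557.5 with zebularine, against 20.5, 261.6 and 316.0 untreated. Its difference was 0.77 ± 0.74 (limma, adjusted p = 0.715 unblocked and 0.254 blocked). It rested on replicate 1, and was 0.31 without both arrays of that replicate. Without untreated culture 1 alone, which leaves zebularine culture 1 without its pair, it was -0.24.

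The remaining tested NRG1 probe sets, 208241_at and 208232_x_at, differed by 0.66 ± 0.43 and -0.11 ± 0.58 (limma, adjusted p = 0.561 and 0.964). Over the 6 arrays 206237_s_at correlated at 0.77 with 208230_s_at and at -0.675 with 208232_x_at. Signals of 208232_x_at, of the type that can bind related transcripts, lay around the filter level. They were 105.0, 37.4 and 68.9 with zebularine and 102.4, 39.5 and 88.4 untreated, so its correlation has little weight. The 6th, 208231_at, had signals of 77.0, 93.5 and 53.7 with zebularine and 27.7, 54.6 and 51.6 untreated, and was not tested. In all, 3 of the 16 tested member probe sets had groups that did not overlap, all of them higher with zebularine, where 8.72% of all tested probe sets did so in that direction. NRG1 206237_s_at and 208230_s_at, among the 3, reached the filter level on all 3 arrays only with zebularine. The third, TGFA 211258_s_at, correlated with the other TGFA probe sets. The count therefore carries no test.

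**Figure D2:**
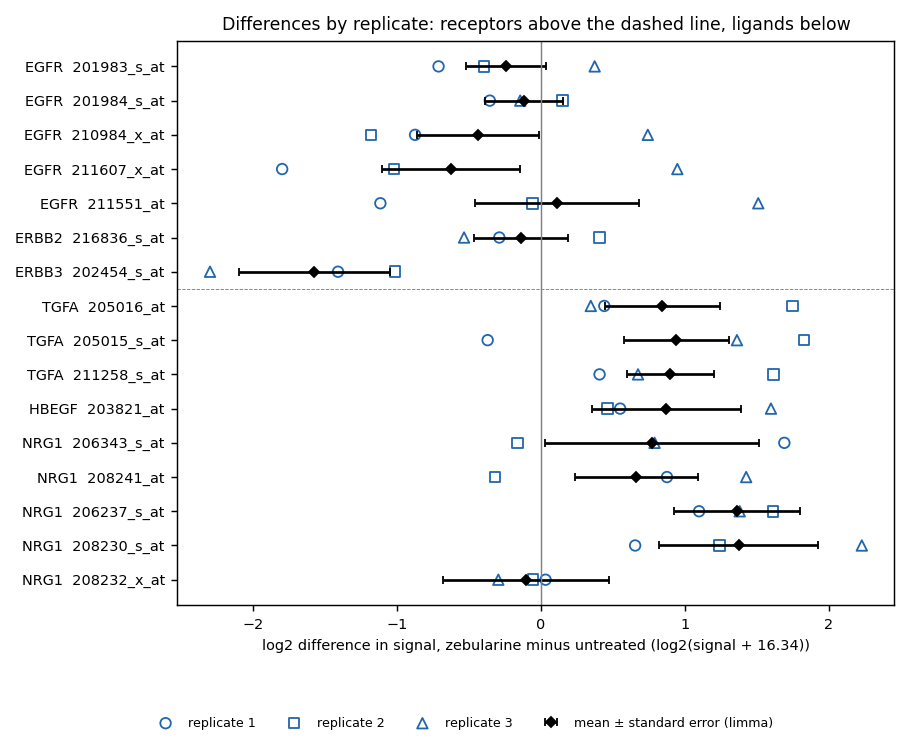
Log2 difference in signal, zebularine minus untreated, of the 16 tested member probe sets, with an open symbol for each replicate and a diamond for the mean with its standard error. ERBB3 lies below 0 in each replicate, TGFA 205016_at, TGFA 211258_s_at, HBEGF and NRG1 206237_s_at and 208230_s_at lie above 0 in each, and the EGFR symbols of replicates 1 and 3 fall on opposite sides of 0 at 4 of 5 probe sets.

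EREG and BTC, both ligands of EGFR, stayed under the filter level on all arrays. EREG had signals of 6.5, 41.6 and 50.5 in zebularine cultures, against 67.1, 38.3 and 3.4 in untreated cultures. BTC had 17.3, 6.3 and 52.7 in zebularine cultures, against 28.3, 27.4 and 32.1 in untreated cultures. Such signals have no reliable order. EREG, BTC and AREG lie on chromosome 4, and the other 6 members on 6 other chromosomes.

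The direction of the members varied between replicates. The 7 tested receptor probe sets were lower in 7, 5 and 3 cases in replicates 1, 2 and 3. The 9 tested ligand probe sets were higher in 8, 6 and 8 cases. Over all tested probe sets 48.7%, 48.6% and 51.0% were higher in replicates 1, 2 and 3. Of the 16, 6 had the same sign in all 3 replicates, where 42.7% of all tested probe sets did.

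Other genes of the pathway were taken from 5 lists with 67 genes, of which 53 had a probe set and 44 were tested. Limma called 0 of the 44, where it called 0.642% of all tested genes. At an unadjusted p under 0.05 there were 2, against 13.1% of all. With the block it called 2, both lower, against 4.45% of all tested genes (2.28% lower). The median difference over the 44 was -0.02, with 20 higher and 24 lower, and the median of all 7939 tested genes was -0.01.

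The proteases that release the ligands did not pass the test. All 7 of these genes, with their partners, were tested, with differences from -0.31 to 0.46. ADAM9 and ADAM10, both membrane-bound metalloproteases that shed such ligands, averaged 9073 ± 2710 and 4876 ± 1105 in zebularine cultures and 9098 ± 494 and 4774 ± 929 in untreated cultures (SD, n = 3 each). These are differences of -0.04 ± 0.26 and 0.03 ± 0.26 (limma, adjusted p = 0.968 and 0.981). ERBB4, EGF and NRG2 of the further receptors and ligands were too dim to test.

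Of the adaptors and signal carriers 16 were tested and none passed, with differences between -0.52 and 0.42 at each gene's brightest tested probe set. SHC1, an adaptor that binds activated receptors, differed by -0.16 ± 0.26 and PTPN11, the phosphatase SHP2 that aids RAS signalling, by 0.10 ± 0.23 (limma, adjusted p = 0.842 and 0.897). Of the inhibitors of the pathway 9 were tested and none passed, with differences between -0.36 and 0.65 at the brightest tested probe sets. DUSP5, a phosphatase that inactivates ERK, differed by -0.16 ± 0.32 and SPRED2, an inhibitor of RAS to ERK signalling, by 0.09 ± 0.40 (limma, adjusted p = 0.879 and 0.955). Dimmer tested probe sets of the ERK phosphatase genes DUSP6 (208891_at) and DUSP4 (204014_at), chosen here after their values were seen, lay outside that range at 1.62 and 1.39. Neither passed (limma, adjusted p = 0.314 and 0.372 unblocked, 0.17 and 0.152 blocked), and untreated culture 2 was the lowest array at both, with signals of 4.6 and 9.8. Across the lists, 32 further probe sets of the tested genes had differences from -0.80 to 1.62, and limma called 0 of them in either fit, with 3 at an unadjusted p under 0.05.

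Among 12 tested genes whose transcription responds to ERK, MYC and EGR1 fell in the blocked fit and 10 were not called. These were the 2 blocked calls among all 44 tested pathway genes, where 4.45% of all tested genes were called (2.28% lower). Of the 12, 5 had a difference above 0 and 7 below. MYC, the growth-promoting transcription factor, had signals of 919.9, 1985.5 and 1484.8 in zebularine cultures, against 4204.5, 2639.0 and 3134.8 in untreated cultures. The groups did not overlap, and the difference was -1.22 ± 0.31 (limma, adjusted p = 0.106 unblocked and 0.0314 blocked).

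EGR1, an immediate early transcription factor, had signals of 144.1, 839.8 and 19.0 at 201694_s_at in zebularine cultures, against 873.9, 1527.5 and 214.8 in untreated cultures. The difference was -2.01 ± 0.91 (limma, adjusted p = 0.386 unblocked and 0.00808 blocked), lower in each replicate with overlapping groups. Without the block the difference was -0.88 without zebularine replicate 3 and -3.18 without zebularine replicate 2. A second tested EGR1 probe set, 201693_s_at, was not called, at -0.53 (limma, adjusted p = 0.733 unblocked and 0.422 blocked). With the block and without replicate 1, the limma fit called neither gene (MYC -0.74, adjusted p = 0.207; EGR1 -1.78, adjusted p = 0.0607).

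**Figure D3:**
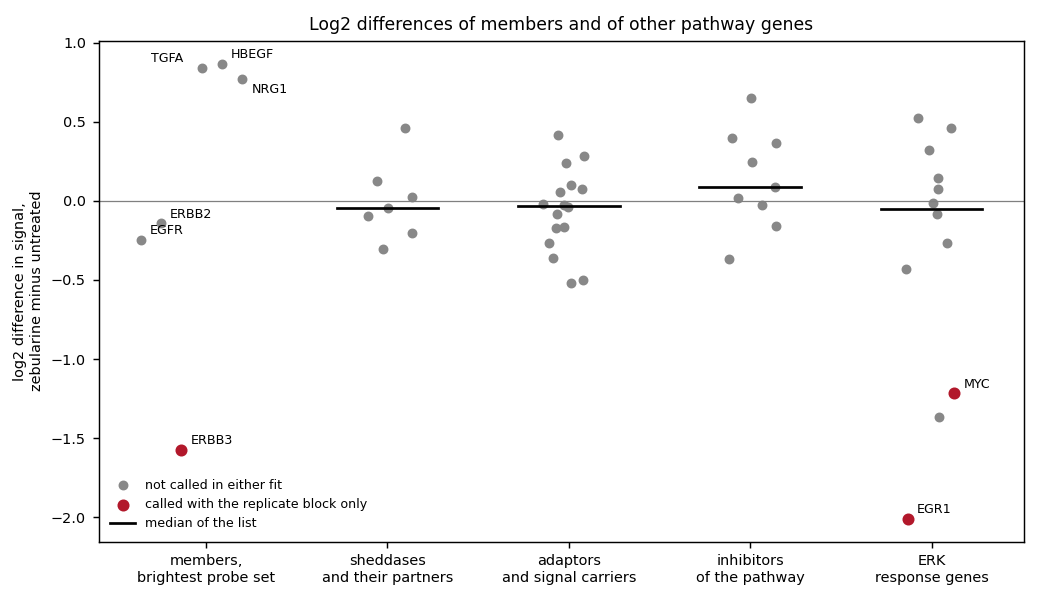
Log2 difference in signal, zebularine minus untreated, of the 6 tested members at their brightest probe set and of 44 other pathway genes by list, with a bar at each list's median. ERBB3, MYC and EGR1, in red, were called only in the fit with the replicate block, and the list medians lie between -0.05 and 0.09.

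ERBB3 and TGFA had the smallest unblocked p among the receptors and among the ligands at their brightest tested probe set. The genes most like them over the 6 arrays were found by Pearson's correlation on the log2 scale, among 7933 other genes at their brightest tested probe set. For ERBB3 these were NME3, MAN2B1 and C1QL1, at 0.997, 0.993 and 0.992, and 235 genes were over 0.9. For TGFA they were PRPH, FBRS and ITGAM, at 0.988, 0.986 and 0.985, and 121 genes were over 0.9. With 6 arrays and so many genes, correlations this high are found for many genes, and the values are a description only.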

How the data were processed

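Total RNA of 3 zebularine and 3 untreated cultures was hybridised to Affymetrix arrays, 1 array per culture, with groups and replicate numbers taken from the sample titles. The deposited values are linear signal intensities that the authors made with MAS5, per the submitters' processing notes; its version is not given in the sources used here. The mean of each array's values between its 2nd and 98th percentiles was 499.1 to 499.8, and no normalization was added. Detection calls were not used.

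The table holds 22277 probe sets, 62 of them controls that were not tested. A total of 13548 others reached 78.5 on at least 3 of 6 arrays. Values were taken as log2(signal + 16.34), the pseudocount being the median of all values divided by 8. Exactly 1 symbol was annotated for 19070 probe sets, several for 1043 and none for 2164. A gene was represented by its brightest tested probe set, which gave 7939 genes. The test was two-sided, from limma 3.58.1 (R 4.3.3; lmFit, then eBayes with trend), adjusted by Benjamini-Hochberg over all tested probe sets and called at an adjusted p under 0.05. Intervals are 95% intervals of that fit.

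Same-numbered arrays carry the same experiment name in the labels, and their deviations from the group means correlated at 0.323, 0.211 and 0.272 in replicates 1, 2 and 3, so the numbers were taken to pair the arrays. The labels call the replicates biological, so p-values without the block reflect the spread among cultures of 1 line. With the block they reflect the spread of the differences between same-numbered cultures. No pair of arrays shared more than 0.198% equal values. Precision is limited by the number of arrays. The code was tested on simulated data.

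The members and lists were chosen with earlier results of these data known. Named were all members, each list's called genes (at most 4, by smallest p) or else its 2 brightest, and the 3 genes most like 1 receptor and 1 ligand. Alternatives changed the block, pseudocount, filter, normalization, trend and arrays. Plots used Python 3.11.15 and matplotlib 3.10.9.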

Additional observations from a re-analysis of the deposited data

How the results depend on the processing

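The count of member probe sets called was 0 in limma without the replicate block under every alternative run (5 of 16 at an unadjusted p under 0.05 in the fit as reported), 2 with the replicate block, and 1 with the block without any 1 of the replicates. The pathway genes called were 0 without the block under every alternative run, 2 with the replicate block, and 1, 3 and 2 with the block without replicate 1, 2 and 3. Among all tested probe sets 84 were called, against 573 with the replicate block, 53 with no pseudocount, 42 with no filter, 6 with no trend and 0 to 96 with arrays left out, and with the block 195, 1024 and 335 without replicate 1, 2 and 3. ERBB3 kept its direction under each alternative, at -1.57 with the replicate block (limma, adjusted p = 0.0294), and from -2.12 to -1.18 with arrays or replicates left out (limma, adjusted p = 0.00485 to 0.82, the lowest with the block and without replicate 2, at -1.86). TGFA at its brightest probe set ran from 0.29 to 1.22 in such fits and was called in 1 of them, with the block and without replicate 3, at 1.09 (limma, adjusted p = 0.00237). ERBB2 ran from -0.42 to 0.10 (0.058 with the block and without replicate 3) and NRG1 at its brightest probe set from -0.24 to 1.34. Both changed sign, NRG1 only where untreated replicate 1 alone was left out, and the cause was not tested. Without both arrays of replicate 1, NRG1 was at 0.31. With all 6 arrays the replicate block changed no other call among the members than those of ERBB3 and NRG1 206237_s_at. With the block and without replicate 1, TGFA 205015_s_at was called, at 1.59 (limma, adjusted p = 0.0252). With 3 arrays a group and no detection calls, dim signals limit ERBB3, HBEGF, EREG, BTC and the dimmer NRG1 and EGFR probe sets most.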
